A study of Homo sapiens with 6 samples.

Results

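The report covers 10 genes of the NRF2 regulatory circuit in K562 cells, an established chronic myeloid leukemia (CML) line of erythroid character. They were taken by symbol from the deposited count table, which lists 24960 genes. The genes are NFE2L2 (NRF2) and NFE2L1 (NRF1), KEAP1, CUL3 and SQSTM1, which govern NRF2 turnover, the small MAF genes MAFG, MAFF and MAFK, and the repressors BACH1 and BACH2. Each was found in the table, and all 10 were among the 15095 genes with enough reads to be tested. RNA had been sequenced from 3 libraries of the control group and 3 of the hyperoside group. Hyperoside is a flavonol glycoside, quercetin joined to galactose. No genetic change separates the groups, K562 is a single line, and the labels give neither the dose nor the vehicle, while the length of treatment before RNA extraction is not given in the sources used here. The labels do not say that the 3 libraries of a group came from separate cultures, so the p-values measure the spread between these libraries.

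NRF2 is a CNC-type bZIP transcription factor that pairs with a small MAF protein and binds the antioxidant response element (ARE) in genes for glutathione synthesis, thioredoxin reduction and iron handling. In resting cells KEAP1 presents NRF2 to the CUL3 ubiquitin ligase, and p62, the product of SQSTM1, can bind KEAP1 and carry it into autophagosomes. NRF1 is a related factor that is held in the endoplasmic reticulum and is known for driving proteasome genes, while BACH1 competes for the same MAF partners and DNA sites, represses genes such as HMOX1, and is released by heme. In erythroid cells a further relative, NFE2, pairs with small MAFs at globin and platelet genes.

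Counts on genes ranged from 35613283 to 36754725 per library, and the smallest count of any of the 10 genes in any library was 273. The erythroid identity of the line was visible in GATA1, at 129 to 162 CPM (counts scaled to the TMM-normalized size of each library) over the 6 libraries, and in HBE1, at 2030.3 to 3541 CPM. GEO's labels name the tissue as bone, but the osteoblast markers BGLAP, SP7 and ALPL had at most 7 counts in a library, and the monocyte marker CD14 had at most 7. Of the 10 markers of bone and other cell types, 5 were tested. COL1A1 fell from 2.77 to 1.397 CPM and PECAM1 rose from 9.74 to 28.0 CPM, while EPCAM was at 78.4 and 77.1 CPM. Of 8 erythroid markers 4 were called lower (HBG1, HBG2 and HBE1 among them) and 2 higher (EPOR and KLF1), against 23.2% lower and 22.1% higher in the whole table. The part of these shifts in the results below was not tested. In bulk RNA, fewer cells carrying a transcript and less of the transcript in each cell cannot be told apart.

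The ARE sequence that this circuit reads was looked for in the promoters of the 10 genes, because the factors are known to regulate several of their own partners. RefSeq promoters on GRCh38.p14, each with 250 bases before and 50 after a start site, were found for 9 of the 10 genes, with 18 start sites in all, and MAFK had none in the table. The ARE core searched was TGACNNNGC on either strand. It occurred in 2 of these 18 promoters (11.1%), against 13.3% of all 35116 promoters. The matches below belong to KEAP1, which rose, and to MAFF, which was not called. Capitals mark the match, and a match on the opposite strand appears as the reverse complement.
KEAP1, second start site, chr19:10502807-10502835, minus strand: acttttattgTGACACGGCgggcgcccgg
KEAP1, second start site, chr19:10502784-10502812, minus strand: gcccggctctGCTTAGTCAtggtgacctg
MAFF, first start site, chr22:38201862-38201890, plus strand: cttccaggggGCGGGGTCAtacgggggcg
In KEAP1 the matches began 54 and 31 bases before the start site, and in MAFF 122 bases before it. The promoter windows of NFE2L2, NFE2L1, CUL3, SQSTM1, MAFG, BACH1 and BACH2 do not hold these letters, and elements further away were outside the windows. The NF-E2 core GCTGAGTCA, which overlaps the ARE core in full, was in 0 of the 18 promoters, against 0.561% of all promoters.

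Hyperoside treatment was accompanied by opposite shifts within the circuit. NFE2L2, NFE2L1, CUL3, MAFG and MAFK fell, to between 66.4% and 80.8% of their control means, while SQSTM1, KEAP1 and BACH2 rose, to between 139% and 203% of theirs. BACH1 and MAFF were not called. By the quasi-likelihood test of edgeR (adjusted p under 0.05, Benjamini-Hochberg over every gene tested), 5 of the 10 genes were thus lower and 3 were higher. The share called lower was 23.2% in the whole table, and the share called higher was 22.1%. The median log2 fold change was -0.33 for the 10 genes and 0.00 for all genes tested. With the study's added requirement of a fold change above 2, SQSTM1 alone passed, 1 of 10 genes, against 10.2% of all tested genes. Normalized CPM of the groups did not overlap for 9 of the 10 genes, against 54.4% of tested genes.

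**Figure D1:**
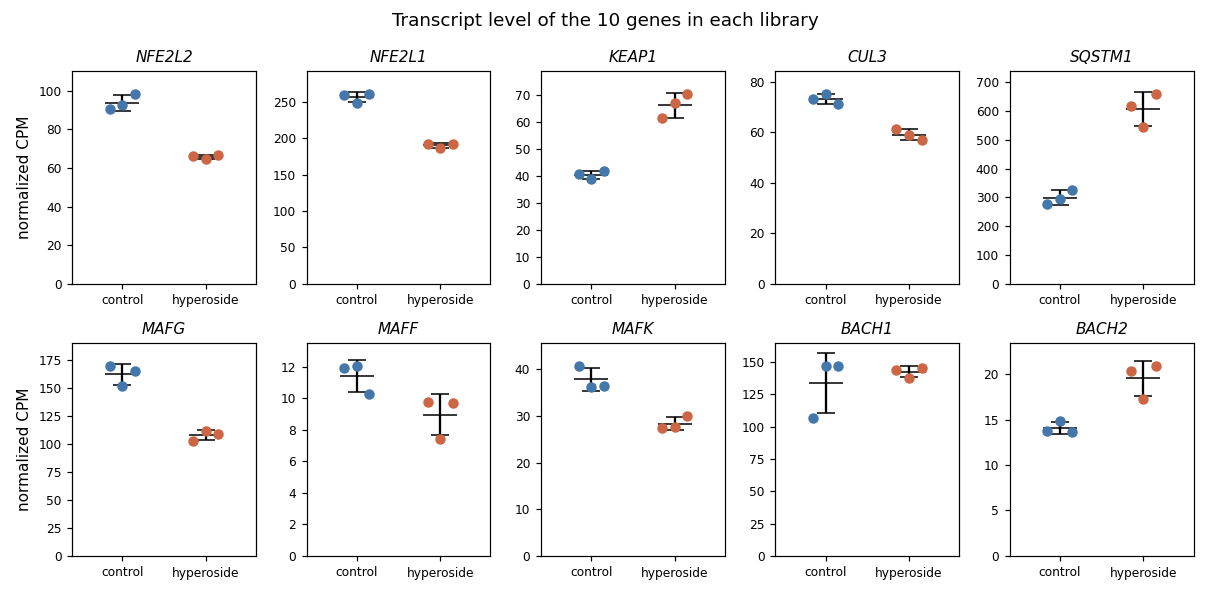
Normalized CPM (y axis, from 0) of each of the 10 genes in the 3 control and 3 hyperoside libraries, with points for libraries, horizontal bars for group means and error bars for the SD. The groups are apart for every gene except BACH1, whose control replicate 1 lies below all the other libraries.

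NFE2L2, the NRF2 gene itself, lies on chromosome 2 of GRCh38 from 177230303 to 177264727. It had 90.6, 92.7 and 98.7 CPM in control replicates 1, 2 and 3, and 66.1, 64.5 and 66.6 CPM in the treated replicates. The highest hyperoside library was thus well below the lowest control library, and the hyperoside libraries were closer together (SD 1.09, n = 3) than the control libraries (SD 4.19, n = 3). The log2 fold change was -0.52, with a 95% interval from -0.67 to -0.36 (adjusted p = 2.46e-05 from edgeR). By FPKM, which takes gene length into account, NFE2L2 held place 2082 among the tested genes in controls and place 2780 under hyperoside. In the GENCODE 29 annotation 17.6% of its exonic bases are shared with AC019080.1 on the same strand, a gene that is not among the rows of the count table.

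NFE2L1 was the more abundant of the pair. This gene on chromosome 17, from 48048359 to 48061545, had 260.2, 248 and 262 CPM in the control libraries, against 192, 187 and 192 CPM in the treated ones. Its groups also stood clear of each other, with a log2 fold change of -0.43 (a standard error (SE) of 0.07, edgeR adjusted p = 4.48e-05). NRF1 and NRF2 transcripts fell nearly in parallel. Of their summed FPKM, NFE2L2 made up 36.2% ± 0.996 in controls and 34.8% ± 0.0901 under hyperoside (SD, n = 3 each). The ratio of NFE2L1 to NFE2L2 was 1.77 ± 0.0774 and 1.87 ± 0.00743 (SD, n = 3 each), and its log2 difference of 0.08 gave p = 0.1 by exact permutation (two-sided, 20 regroupings of the libraries), the smallest p that 3 libraries against 3 can give. Of 9 such ratios between the 10 genes or their sums, none could therefore pass a threshold of 0.05, and the smallest adjusted p was 0.15.

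The other CNC activators of the line did not all follow NRF2. NFE2L3, the gene of the poorly studied relative NRF3, had 33.1 to 34.6 CPM in controls and 25.2 to 28.2 CPM under hyperoside, a log2 fold change of -0.35 (adjusted p = 0.00430 from edgeR). NFE2, the erythroid and megakaryocytic p45 subunit, moved the other way. It had 118, 96.7 and 85.7 CPM in the control libraries, against 174, 199.5 and 174 CPM in the treated ones, so that every hyperoside library was above every control library. Its log2 fold change was 0.87 (SE 0.10, edgeR adjusted p = 1.49e-06). In the control group NFE2L1 and NFE2 held like shares of the FPKM summed over NFE2, NFE2L1, NFE2L2 and NFE2L3, at 37.1% ± 1.89 and 35.4% ± 3.91 (SD, n = 3). In the hyperoside group NFE2 alone held 57.8% ± 2.41, and NFE2L2 went from 21.1% ± 1.89 to 13.1% ± 0.701 (SD, n = 3). The summed FPKM of the 4 genes was 138 ± 4.04 in controls and 160.3 ± 6.31 under hyperoside (SD, n = 3), so the shift was one of composition as well as of level.

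**Figure D2:**
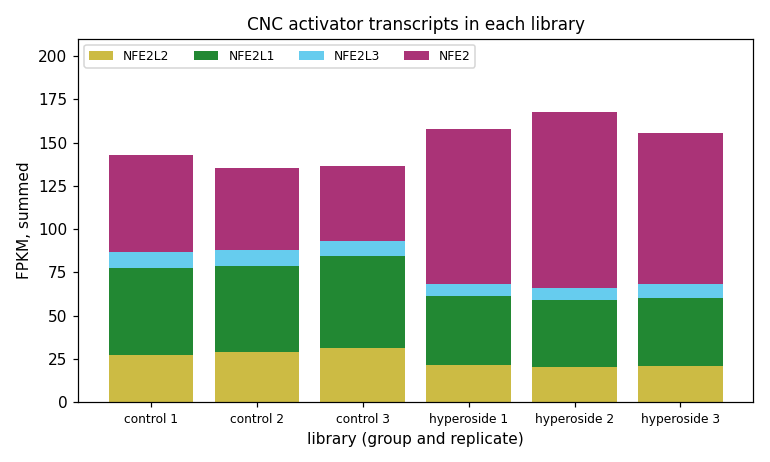
FPKM of the 4 CNC activator genes stacked for each library (x axis, group and replicate; y axis, summed FPKM from 0). NFE2 makes up 31.5% to 39.3% of the stack in the control libraries and 56.2% to 60.6% in the hyperoside libraries.

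Among the large MAF relatives, MAF had at most 4 counts in any library and was not tested, and MAFA was at 1.71 and 0.738 CPM with a log2 fold change of -1.204 (adjusted p = 0.0236 from edgeR). NRL was not called. The CNC and large MAF list had 4 tested genes of 6. Of these, 2 were called lower (50%) and 1 higher (25%), against 23.2% and 22.1% of all tested genes.

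KEAP1, the substrate adaptor that captures NRF2, rose. It lies on chromosome 19 from 10486125 to 10503356, and no other annotated gene shares its exons. KEAP1 had 40.6, 38.9 and 41.8 CPM in the control libraries, against 61.4, 67.0 and 70.6 CPM in the treated ones, a gap between the groups larger than the range within either. The log2 fold change was 0.72, with a 95% interval from 0.54 to 0.89 (adjusted p = 2.54e-06 from edgeR). The ratio of KEAP1 to NFE2L2 transcripts, by FPKM, went from 0.451 ± 0.0165 in the control group to 1.06 ± 0.0741 in the hyperoside group (SD, n = 3 each). No library of either group came near the other, with 0.470 as the highest control value and 0.974 as the lowest hyperoside value. This log2 difference of 1.23 had the smallest p available, 0.1, in the exact permutation test.

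CUL3, the ligase scaffold that KEAP1 binds, changed in the opposite direction and by less. In the control replicates it had 73.0, 75.2 and 71.0 CPM and in the treated replicates 61.4, 59.0 and 56.7 CPM. The groups did not overlap, and the log2 fold change was -0.31 (SE 0.08, edgeR adjusted p = 0.00357). Its ratio to NFE2L2 by FPKM was 0.339 ± 0.0224 and 0.390 ± 0.0177 (SD, n = 3 each), a log2 difference of 0.21 with p = 0.1 in the exact permutation test, which again is the smallest possible. The adaptor and its scaffold thus parted, KEAP1 being 1.64-fold its control level and CUL3 0.808-fold.

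SQSTM1 showed the largest change of the 10 genes. This gene on chromosome 5, from 179806393 to 179838078, had 275, 295 and 326 CPM in the control libraries, against 618, 545 and 661 CPM in the treated ones. Its log2 fold change was 1.02, with a 95% interval from 0.85 to 1.196 (adjusted p = 2.69e-08 from edgeR), or a fold of 2.03. This fold sits at the study's limit of 2, and without control replicate 1 or without hyperoside replicate 3 the log2 fold change was 0.97, which falls short of it. SQSTM1 was the most abundant of the 10 by FPKM in both groups, moving from place 624 to place 254 among all tested genes. On the ratio scale, SQSTM1 transcripts were 3.10 ± 0.131 times NFE2L2 transcripts in controls and 9.005 ± 0.723 times under hyperoside (SD, n = 3 each; p = 0.1 in the exact permutation test). MRNIP, on the opposite strand, shares 20.7% of the annotated exonic bases of SQSTM1. It had 303 to 501 counts per library against 9677 to 23869 for SQSTM1, and it was lower in the hyperoside group (log2 fold change -0.50, adjusted p = 0.0124 from edgeR).

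**Figure D3:**
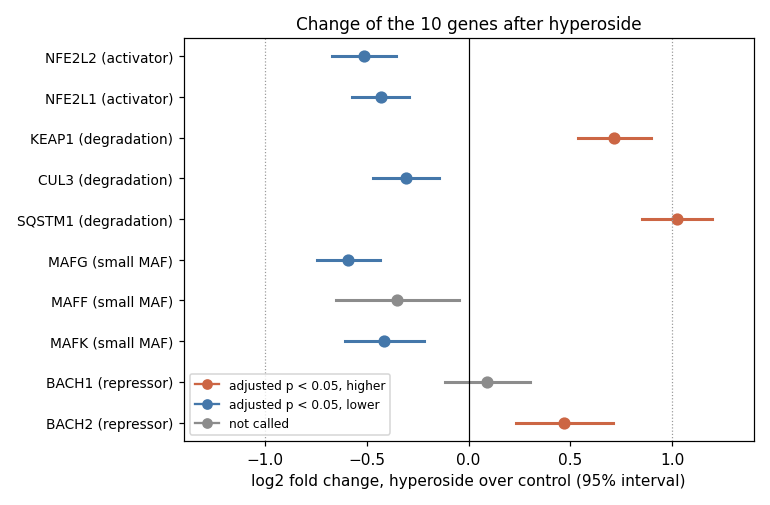
Log2 fold change of hyperoside over control (x axis) for the 10 genes ordered by role (y axis), with points for edgeR estimates and lines for 95% intervals. Dotted lines mark a fold of 2 in either direction, and SQSTM1 at 1.02 is the only estimate past them.

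The partners of p62 moved in both directions. Of 14 tested genes for autophagy receptors, ATG8 proteins and p62-binding kinases, 3 were called lower and 3 higher, shares of 21.4% each that lie near those of all genes. GABARAPL1 and MAP1LC3B, ATG8 family members to which p62 docks, fell. GABARAPL1 went from 79.3 to 81.8 CPM in the control libraries to 42.2 to 51.0 CPM in the hyperoside libraries, a log2 fold change of -0.80 (adjusted p = 7.35e-07 from edgeR), and MAP1LC3B had a log2 fold change of -0.57 (adjusted p = 3.24e-06 from edgeR). CALCOCO2, which encodes the receptor NDP52, fell as well, by 0.47 on the log2 scale. WDFY3, TOLLIP and RB1CC1 rose, with log2 fold changes of 0.78, 0.65 and 0.36. NBR1, the receptor most related to p62, was at 169 and 166 CPM and was not called.

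Other NRF2 ubiquitin ligases and KEAP1 partners made up a list of 19 genes, all tested, of which 4 were called lower (21.1%) and 6 higher (31.6%), near the 23.2% and 22.1% of all tested genes. Their median log2 fold change was 0.07. CUL1, scaffold of the ligase that uses the β-TrCP adaptors, rose from between 73.1 and 76.8 CPM to between 129 and 146 CPM (log2 fold change 0.87, adjusted p = 6.66e-08 from edgeR), and BTRC, which encodes β-TrCP1, had a log2 fold change of 0.56. Its paralog FBXW11 and the shared subunit SKP1 were lower, at -0.22 and -0.28. SYVN1, the gene of the endoplasmic reticulum ligase HRD1, fell from between 98.2 and 108 CPM to between 57.7 and 64.4 CPM (log2 fold change -0.73, adjusted p = 8.14e-07 from edgeR), and DCAF11 had a log2 fold change of -0.38. The deubiquitinase gene USP11 and DPP3, whose product competes for KEAP1, rose by 0.52 and 0.55. The GSK3 kinase genes GSK3A and GSK3B were not called, both at 0.07.

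The small MAF genes, which supply the obligate partners of NRF1, NRF2, NFE2 and BACH1, were all lower on average. MAFG was the main source. It lies on chromosome 17 from 81918270 to 81931244, with 169.7, 152 and 165 CPM in the control libraries, against 103, 112 and 109 CPM in the treated ones. The log2 fold change of -0.59 (95% interval -0.75 to -0.44, adjusted p = 4.31e-06 from edgeR) was the largest fall among the 10 genes. MAFK had 40.8, 36.3 and 36.4 CPM in the control libraries, against 27.5, 27.7 and 29.9 CPM in the treated ones. Here too the groups were apart, with a log2 fold change of -0.42 (SE 0.09, edgeR adjusted p = 0.00133). MAFF, a stress-inducible member of low level, had 11.9, 12.04 and 10.2 CPM in the control libraries, against 9.73, 7.43 and 9.66 CPM in the treated ones. Although these values did not overlap, the margin was small, and the log2 fold change of -0.35 had an adjusted p of 0.0560 in edgeR (unadjusted p = 0.0260), so MAFF was not called. Without control replicate 3 its adjusted p was 0.0390.

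Summed over the family, small MAF transcripts went from 45.1 ± 1.63 to 32.4 ± 0.608 FPKM (SD, n = 3 each). MAFG made up 68.3% ± 1.49 of the sum in controls and 65.3% ± 2.13 under hyperoside (SD, n = 3), ranges that overlapped. Relative to NFE2L2, the small MAF sum was 1.56 ± 0.122 and 1.54 ± 0.0425 (SD, n = 3), and the log2 difference of -0.01 gave p = 0.9 by two-sided exact permutation. The ratio of MAFG to NFE2L2 likewise overlapped between groups, at 1.06 ± 0.0776 and 1.01 ± 0.0537 (SD, n = 3; p = 0.4 in the exact permutation test), as did that of MAFK (p = 0.4 in the exact permutation test). With 3 libraries per group these tests do not show that the ratios were equal.

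**Figure D4:**
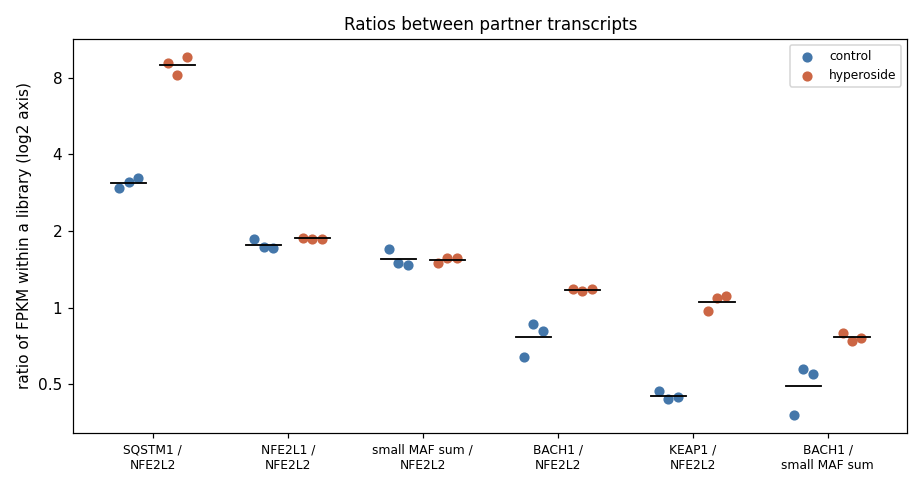
Ratios of FPKM between partner genes within each library (y axis, log2 scale), with points for the 3 control and 3 hyperoside libraries and bars for geometric means. The ratios of SQSTM1, KEAP1 and BACH1 to NFE2L2 are higher in each hyperoside library than in each control library, and the ratio of the small MAF sum to NFE2L2 overlaps.

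BACH1, the heme-sensing repressor, was not called, and control replicate 1 decides the sign of its difference. BACH1 lies on chromosome 21 from 29298922 to 29361894. It had 107, 147 and 147 CPM in control replicates 1, 2 and 3 and 144, 137 and 145 CPM in the treated replicates. Leaving aside control replicate 1, the 5 other libraries lay between 137 and 147 CPM. The log2 fold change was 0.09, with a 95% interval from -0.12 to 0.30 (adjusted p = 0.474 from edgeR), and without control replicate 1 it was -0.04 (adjusted p = 0.614 from edgeR). BACH1 in control replicate 1 was lower than the mean of the other control libraries by 0.46 on the log2 scale. Over all tested genes too, control replicate 1 was further from the other controls than those were from each other. Among 3277 tested genes with at least 50% of the mean CPM of BACH1, 58 (1.77%) were lower in control replicate 1 by as much or more. The cause was not tested.

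Relative to NFE2L2 and the small MAFs, the repressor's transcript was more abundant in the hyperoside group. By FPKM, the BACH1 to NFE2L2 ratio was 0.642, 0.863 and 0.809 in control libraries and 1.19, 1.16 and 1.19 in treated ones. On this measure BACH1 was thus below NFE2L2 in every control library and above it in every hyperoside library. This crossing depends on the gene lengths behind FPKM. In CPM, BACH1 was above NFE2L2 in every library, with control means of 133 and 94.0. The log2 difference in the FPKM ratio was 0.62 (p = 0.1 by two-sided exact permutation, the smallest possible). Without control replicate 1 it was 0.50. The ratio of BACH1 to the small MAF sum went from 0.501 ± 0.107 to 0.764 ± 0.0281 (SD, n = 3 each; p = 0.1 in the same exact permutation test), a log2 difference of 0.63, or 0.44 without control replicate 1.

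BACH2, which is best known from B cells, was the least abundant of the 10 per length, at 0.762 ± 0.0412 FPKM in controls and 1.09 ± 0.107 FPKM under hyperoside (SD, n = 3). In counts it was nevertheless well covered, with 484 to 522 counts in the control libraries and 636 to 756 in the hyperoside libraries. BACH2 rose from 13.8, 14.8 and 13.7 CPM to 20.4, 17.3 and 20.9 CPM, a log2 fold change of 0.47 (SE 0.11, edgeR adjusted p = 0.00241). Both BACH genes together went from 23.3 ± 4.39 to 25.9 ± 0.836 FPKM (SD, n = 3), values that overlapped between the groups.

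Genes that act on BACH1 turnover were all called, 3 lower (60%) and 2 higher (40%) of 5, against 23.2% and 22.1% of all tested genes. FBXO22, whose product directs BACH1 to degradation, went from between 72.9 and 76.0 CPM to between 51.9 and 59.1 CPM (log2 fold change -0.41, adjusted p = 0.000512 from edgeR), and RBCK1, which encodes the ligase HOIL-1, had a log2 fold change of -0.71. FBXW11 also belongs to this list. FBXL17, a further BACH1 ligase gene, rose by 0.85 at a low level of 5.51 and 9.94 CPM, and the nuclear export receptor gene XPO1 had a log2 fold change of 0.32.

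Ordered by FPKM, the 10 genes ran SQSTM1, NFE2L1, MAFG, NFE2L2, BACH1, KEAP1, CUL3, MAFK, MAFF and BACH2 in the control group. The ranges of neighbours overlapped for MAFG with NFE2L2 and for CUL3 with MAFK, and the other neighbours were apart. In the hyperoside group the order was SQSTM1, NFE2L1, BACH1, KEAP1, MAFG, NFE2L2, CUL3, MAFK, MAFF and BACH2. KEAP1, MAFG and NFE2L2 then had overlapping neighbours at 22.2, 21.2 and 21.0 FPKM, as did CUL3 and MAFK. By FPKM, BACH1 thus stood below NFE2L2 in each control library and above it in each treated library. In CPM, BACH1 was above NFE2L2 in every library. KEAP1, by FPKM, was below NFE2L2 in each control library and in hyperoside replicate 1 and above it in the other treated libraries.

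Among 4134 genes whose mean CPM was within 2-fold of that of NFE2L2, those whose 6 library values, on the log2 scale and relative to their own control mean, lay closest to NFE2L2 were ZNF184, TES and STX16. Their mean absolute differences from NFE2L2 were 0.02, 0.02 and 0.03 on the log2 scale. This likeness largely restates a fall of the same size, with log2 fold changes of -0.51, -0.55 and -0.46.

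Genes known as NRF2 targets were then described, from a list of 37 genes of which 32 were tested. Of these, 17 were called lower (53.1%) and 5 higher (15.6%), against 23.2% and 22.1% of all tested genes, and the median log2 fold change was -0.28. Like the other gene lists, this one was chosen with earlier results of these data known. The part of that choice in these shares was not tested. SLC7A11, the cystine transporter gene that ATF4 also drives, fell most, from 76.9, 83.8 and 125 CPM in the control libraries to 25.8, 28.2 and 22.9 CPM in the treated ones, with a log2 fold change of -1.90 (adjusted p = 1.19e-08 from edgeR). The mitochondrial porphyrin transporter gene ABCB6 followed, from 59.0, 44.9 and 46.3 CPM in the control replicates to 23.4, 24.6 and 26.1 CPM in the treated replicates (log2 fold change -1.02, adjusted p = 6.40e-07 from edgeR). Both genes of glutamate-cysteine ligase were lower. GCLM, its modifier subunit, had 64.9 to 89.8 CPM in controls and 48.1 to 57.7 CPM under hyperoside, and GCLC, its catalytic subunit, 35.1 to 40.4 and 26.7 to 30.8 CPM. Their log2 fold changes were -0.59 and -0.37 (adjusted p = 0.000219 and 0.00397 from edgeR).

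TXNRD1, thioredoxin reductase, also fell. It had 308, 314 and 312 CPM in the control libraries, against 205, 209.5 and 193 CPM in the treated ones, and thioredoxin (TXN) fell by 0.47 on the log2 scale. The log2 fold change of TXNRD1 was -0.62 (adjusted p = 8.92e-07 from edgeR). NQO1, the quinone reductase that is often read as an NRF2 reporter, did not fall. It had 40.5, 45.9 and 46.4 CPM in the control libraries, against 57.3, 55.6 and 56.3 CPM in the treated ones, a log2 fold change of 0.35 (SE 0.08, edgeR adjusted p = 0.00277). CES1, ABCC1, MGST1 and SRXN1 were the others called higher, with log2 fold changes of 1.41, 0.25, 0.32 and 0.33. Without hyperoside replicate 3 the number called higher was 3. The pentose phosphate genes PGD and TKT, at -0.06 and -0.11, were not called, but TALDO1 was lower, at -0.31 (adjusted p = 0.00412 from edgeR). Of the tested targets, 10 were not called. Among them were AKR1C1, AKR1C2 and AKR1C3, at 0.03, -0.10 and 0.07. HMOX1, the heme oxygenase gene that NRF2 activates and BACH1 represses, had 0 counts in each control library and 1, 1 and 0 counts in the hyperoside libraries. A count of 0 allows up to 3, so no difference was detectable at this depth.

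**Figure D5:**
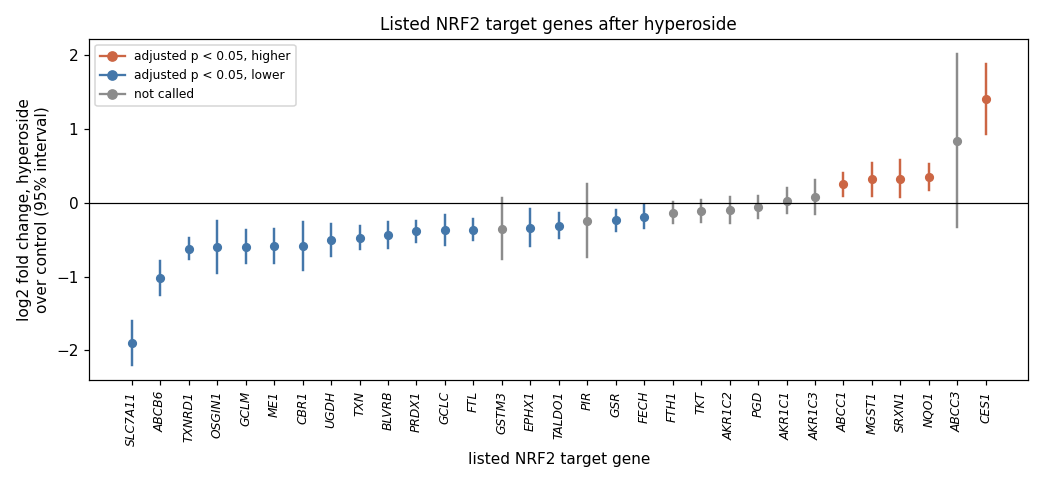
Log2 fold change of hyperoside over control (y axis) for 31 of the 32 tested NRF2 target genes in order of change (x axis), with points for edgeR estimates and lines for 95% intervals. Blue marks the 17 genes called lower and orange the 5 called higher, which include NQO1.

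The ARE core was more frequent in the promoters of these targets than in those of the 10 circuit genes. The targets were listed because they are known as such, so this difference may follow from how the list was made. The core was present in 11 of 30 promoter windows (36.7%), against 13.3% of all 35116 promoters. The 30 windows belonged to 24 of the 32 genes. Of the 10 genes with a match, 7 were called lower, 1 higher and 2 not called. Of the 14 genes whose windows hold no match, 7 were called lower, 2 higher and 5 not called. Some of the matches in genes that fell are shown to compare the letters around the core. ME1, the NADP-dependent malic enzyme gene, and the choice of matches were added after the values were seen, and TXNRD1 and ME1 each hold 1 further match that is not shown. EPHX1, CBR1 and FECH, also called lower, hold matches that are not shown either.
GCLM, chr1:93909446-93909474, minus strand: tacgatttctGCTTAGTCAttgtcttcca
TXNRD1, first start site, chr12:104215670-104215698, plus strand: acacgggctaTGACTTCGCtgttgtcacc
TXNRD1, second start site, chr12:104286920-104286948, plus strand: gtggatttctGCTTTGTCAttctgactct
ME1, chr6:83431170-83431198, minus strand: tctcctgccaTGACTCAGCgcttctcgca
ABCB6, chr2:219219092-219219120, minus strand: cctgggcacgTGACCAAGCcggctctgct
The GCLM match has the same 9 letters as the nearer KEAP1 match given above, GCTTAGTCA, although GCLM fell and KEAP1 rose. The ME1 match is the NF-E2 core on the opposite strand, and ME1 had a log2 fold change of -0.59 (adjusted p = 0.000278 from edgeR). PIR is the other target with this core in its window, and it was not called (log2 fold change -0.24, adjusted p = 0.423 from edgeR). A match in these windows is a description of letters and does not show binding.

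Targets assigned to BACH1, which overlap the NRF2 list in part, were mostly lower. Of 20 genes 19 were tested, 15 were called lower (78.9%) and 1, NQO1, higher (5.26%), against 23.2% and 22.1% of all tested genes, with a median log2 fold change of -0.42. Those that fell include the globin genes HBG2, HBG1, HBA1, HBA2 and HBE1 (log2 fold changes -0.80, -0.87, -0.96, -0.88 and -0.46). Near-identical copies among them may share reads, and HBB, at 0.423 and 0.411 CPM, was not called. HBG1, HBG2 and HBE1 are also among the erythroid markers that were lower in the hyperoside group. The part of erythroid change in this count was not tested. Other lower genes, ABCB6 and TXNRD1 among them, were already counted as lower NRF2 targets. This count is therefore not separate from that of the NRF2 list.

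Genes whose products act on NRF1, among them those that release and process it at the endoplasmic reticulum, were 11, all tested. Of these, 4 were called lower (36.4%) and 2 higher (18.2%), against 23.2% and 22.1% of all tested genes. OGT, the O-GlcNAc transferase gene, went from between 561.5 and 665 CPM to between 338 and 375 CPM (log2 fold change -0.80, adjusted p = 2.05e-07 from edgeR). VCP, the segregase that extracts NRF1, and SEL1L, a component of the HRD1 complex, had log2 fold changes of -0.34 and -0.35, and USP15 had -0.25. The protease gene DDI2 and the glycanase gene NGLY1, which activate NRF1, rose slightly, by 0.30 and 0.18. Proteasome genes, the classic output of NRF1, had small changes. They were listed as subunits but include the activator gene PSME4 and the assembly factor gene POMP. Of 33 tested, 9 were called lower (27.3%) and 1 higher (3.03%), against 23.2% and 22.1% of all tested genes, with a median log2 fold change of -0.13 and a range from -0.43 to 0.22. PSMD12, PSME4, PSMD13 and PSMA2 were the called genes of smallest adjusted p among the lower ones, at -0.43, -0.41, -0.31 and -0.24, and PSMC3 was the gene called higher.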

How the data were processed

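Total RNA of K562 cells was sequenced by the authors on an Illumina instrument. The submitters' processing notes name fastp, HISAT2, HTSeq and hg38. Their versions, the gene annotation and the strand setting are not given in the sources used here. The authors deposited raw counts per gene, and FPKM values in which the counts are scaled to gene length and library total. Libraries were grouped by sample title.

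The count analysis used edgeR 4.0.16 under R 4.3.3 (TMM, filterByExpr with a minimum count of 10 and total of 15, quasi-likelihood test, Benjamini-Hochberg adjustment over 15095 genes). The study names DESeq, and DESeq2 1.42.0 and limma 3.58.1 served as alternatives. FPKM ratios within libraries were compared by exact permutation in Python 3.11.15 with scipy 1.17.1. Intervals are t-based on the moderated degrees of freedom, and limits on counts of 0 cover counting error only. Of these steps, the edgeR fit alone was tested on simulated counts. The simulation had fewer changed genes than were called here, and larger changes than most of the 10 genes had. Replicates differed by more than counting noise, with a chi-square per degree of freedom of 6.46 to 24.4. Control replicate 1 stood furthest off, at 21.3 and 24.4 against control replicates 2 and 3, which had 6.46 between them.

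The 10 genes and the gene lists were chosen with earlier results of these data known. Genes were named by rule: the 10, the genes NFE2, NFE2L3, NQO1, GCLC, GCLM, TXNRD1, HMOX1 and SLC7A11, up to 4 called genes of smallest adjusted p per direction and list, and the 3 genes most like NFE2L2. Those named beyond it (EPCAM, NRL, NBR1, GSK3A, GSK3B, PGD, TKT, TALDO1, ME1, SRXN1, EPHX1, CBR1, FECH, HBA1, HBA2, GATA1, MRNIP, TMEM184A, GRIK1 and others given only as not called, not tested, overlapping or as markers) were chosen after their values were seen. Positions and promoters came from RefSeq on GRCh38.p14, and overlaps from GENCODE 29. TRIM16L, 1 listed gene, was not analysed here. Some genes that the lists count are not reported by name here.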

Additional observations from a re-analysis of the deposited data

How the results depend on the processing

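Of the 10 genes, 5 were called lower and 3 higher under each change of normalization (DESeq2 size factors, upper quartile), test (DESeq2, limma-trend on CPM and on FPKM with 1 or 0.1 added), filter (none) and with the replicate number as a block. The replicate block gave 3103 lower and 3026 higher genes in the table. Deviations of same-number libraries from their group means had correlations of -0.15, -0.03 and -0.02. With 3 libraries per group these values cannot show whether same-number libraries shared a culture or batch, and the labels do not say. Leaving out each library in turn, 5 to 6 of the 10 genes were lower and 3 were higher, and between 0 and 1 passed a fold of 2. NRF2 targets called higher then numbered 3 to 5, and those called lower 14 to 18. The log2 fold change of BACH1 ranged from -0.0427 to 0.165, its sign turning without control replicate 1. The log2 difference in the ratio of the small MAF sum to NFE2L2 ranged from -0.0487 to 0.0536, turning to 0.0536 without control replicate 1 and to 0.0131 without hyperoside replicate 1. For NRF2 targets, the other settings gave 15 to 17 lower and 5 higher. The unknown strand setting limits 8 of the 10 genes, all but KEAP1 and MAFF, since their exons share bases with opposite-strand genes. The shared part was 20.7% for SQSTM1 with MRNIP, 18.1% for MAFK with TMEM184A and at most 5.20% per gene for the others. GRIK1, which shares 0.583% of the exonic bases of BACH1, had 81 to 158 counts in controls and 427 to 539 in treated libraries.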
